A study of Mus musculus with 4 samples.

Results

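The genes described here are 7 ligands of the epidermal growth factor (EGF) family, *Egf*, *Tgfa*, *Hbegf*, *Areg*, *Ereg*, *Btc* and *Nrg1*, and 3 of their receptors, *Egfr*, *Erbb2* and *Erbb3*. They were taken by name, and all 10 were found among the 46095 gene symbols of the count table and passed the filter on low counts. Ligands of this family are made as membrane-anchored precursors and are set free by proteases at the cell surface. EGF, transforming growth factor alpha, heparin-binding EGF, amphiregulin, epiregulin, betacellulin and epigen bind EGFR, and some of them also bind ERBB4, whereas neuregulins bind ERBB3, ERBB4 or both. ERBB2 has no ligand of its own and works as a partner of the other receptors, and the occupied pairs signal through the RAS-MAPK and PI3K-AKT cascades. In the stomach, acid-secreting parietal cells are a known source of several of these ligands, and EGFR signalling restrains acid secretion and drives growth of the mucous epithelium.

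Gastric RNA was sequenced from WT and *Atp4b-cre; MycOE* mice on a C57BL/6 background at 12 weeks of age, with 2 samples of each genotype. The series description speaks of triplicates, and only these 2 samples of each genotype were analysed here. The transgenic mice carry *Atp4b-cre*, which is active in the parietal cell lineage, and 1 floxed allele (Myc fl/+) from which Cre switches on human *c-Myc*. The controls called WT are not free of the allele, since they are Myc fl/fl mice without Cre. No treatment was given to either group, and the labels do not say whether 2 samples of a genotype came from separate mice. The WT samples differed in sex-linked genes, as given further on, so they were not repeats of 1 mouse. For the transgenic pair this is not known, and p-values measure the spread between these 4 samples. Total counts lay between 30260305 and 41463647 per sample. The WT samples had 1062 and 759 counts of mouse *Myc*, against 735 and 1091 for the *Atp4b-cre; MycOE* samples under the re-sorted names described below. With the deposited names the transgenic counts beside *Myc* were 4920 and 6600. The table has no separate row for human *c-Myc*, so these counts check nothing about the genotype labels.

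Before the values of the members are read, the names of the transgenic counts have to be settled. In the deposited table the r between genotypes of mean log2(count + 1) over all gene rows was 0.524. The counts of both *Atp4b-cre; MycOE* columns were therefore moved, in row order, onto the gene names arranged by character code (capitals before lower case), which gave an r of 0.985. The 61 rows around each member gave r between 0.926 at *Hbegf* and 0.983 at *Erbb3* after this move. With the deposited names the same windows gave -0.05 at *Nrg1*, -0.03 at *Areg*, 0.122 at *Tgfa*, 0.306 at *Btc*, 0.374 at *Hbegf*, 0.696 at *Egfr* and 0.938 at *Egf*. The windows of *Ereg*, *Erbb2* and *Erbb3* gave the same r, between 0.980 and 0.983, before and after. *Egf*, *Ereg*, *Egfr*, *Erbb2* and *Erbb3* keep their place under both arrangements, so their counts are the same in either table. *Tgfa*, *Hbegf*, *Areg*, *Btc* and *Nrg1* do not, and their values hold only for the re-sorted names. In the deposited order the transgenic counts beside *Areg* were 16 and 67, those beside *Tgfa* 8944 and 10561, those beside *Hbegf* 2307 and 3972, those beside *Btc* 514 and 630, and those beside *Nrg1* 0 and 0. With those counts *Areg* would be lower (log2 fold change -4.26) and *Tgfa* higher (1.97) in *c-Myc* transgenic mice, both opposite in sign to the re-sorted values. All values from here on are those of the re-sorted table.

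**Figure D1:**
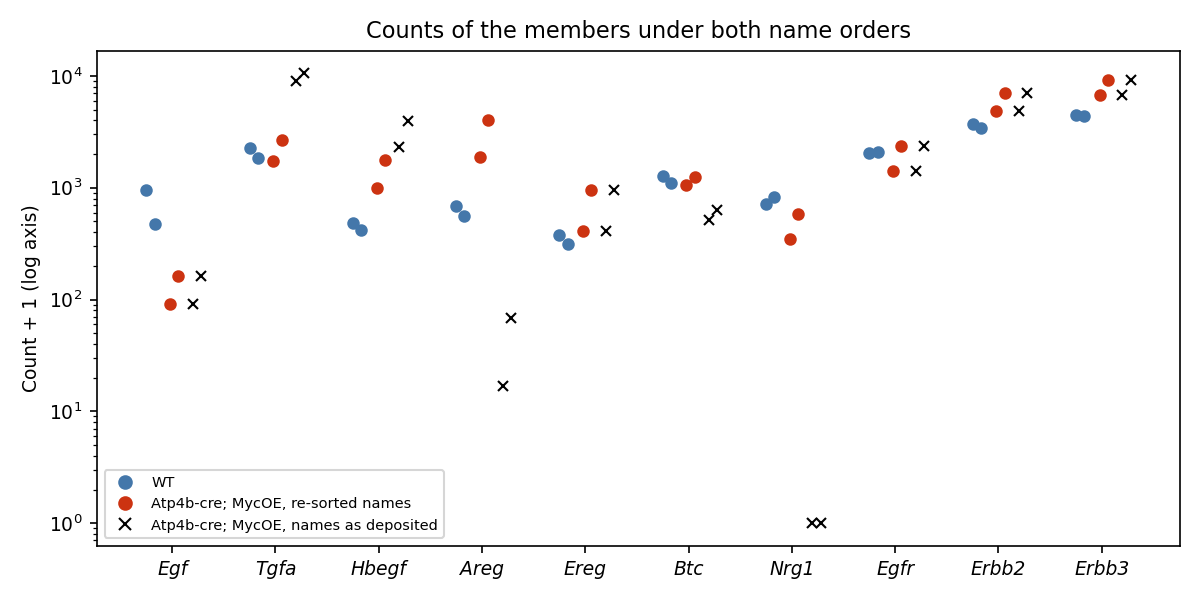
Counts plus 1 of the 10 members on a log axis, with 1 point per sample, for WT (blue), for *Atp4b-cre; MycOE* under the re-sorted names (red) and for the same columns under the deposited names (crosses). Red points and crosses stand at the same heights for *Egf*, *Ereg*, *Egfr*, *Erbb2* and *Erbb3*, and the crosses lie far below the WT points for *Areg* (16 and 67 counts) and *Nrg1* (0 and 0 counts).

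The samples differed in more than genotype. The 10 parietal cell markers, which include both subunits of the proton pump, summed to 14317 and 14519 normalized CPM (counts scaled by library size and TMM factors) in WT and to 2068 and 2026 in transgenic mice, and 9 of 10 were called lower. In bulk tissue, fewer parietal cells and less RNA per parietal cell cannot be told apart. Chief cell (4 of 5 in the table) and surface mucous markers (4 of 4) were also called lower, as were 2 of 5 fibroblast, 3 of 7 leukocyte, 1 of 3 tested pancreatic acinar and 1 of 4 adipocyte markers, whereas 3 of 5 mast cell markers were called higher. None of 2 mucous neck, 9 forestomach squamous, 5 smooth muscle and 5 enteric glia and neuron markers was called. Another 4 pancreatic genes were not tested, of which *Cpa1* and *Prss2* had 0 counts in every sample. The adipocyte list summed to 86.5 and 300.8 normalized CPM in WT and to 0.708 and 12.6 in transgenic mice. The part of fat tissue in the values of the members was not tested. The squamous list summed to 2676 and 1528 normalized CPM in WT, 897.7 in transgenic replicate 1 and 4505 in replicate 2, so the transgenic samples lay on either side of WT. *Xist* had 17846 counts in WT replicate 2 and between 85 and 201 in the other 3 samples, and the 4 Y-linked genes of the sex list ran the other way. Sex was therefore not balanced between the genotypes, and its part in the values of the members was not tested.

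A gene was called when the adjusted p-value from edgeR's quasi-likelihood test was under 0.05 and the fold change above 1.5 in either direction. Of the 10 members, *Areg* and *Hbegf* rose, *Egf* fell, and 7 were not called. Over all 17643 tested genes 10.7% were called, 5.65% higher and 5.08% lower. The median log2 fold change of the members was 0.05, beside 0.01 over all tested genes. In none of the 10 members did the normalized CPM of the genotypes overlap, but with 2 samples against 2 the same was true of 64.9% of all tested genes. DESeq2, which called 18.0% of the genes it gave an adjusted p-value, called *Nrg1* in addition. Without WT replicate 1 or without WT replicate 2, edgeR called 0 of 10 members and 0 of all genes tested, with 6 members and 3554 or 3410 genes in all at an unadjusted p under 0.05.

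**Figure D2:**
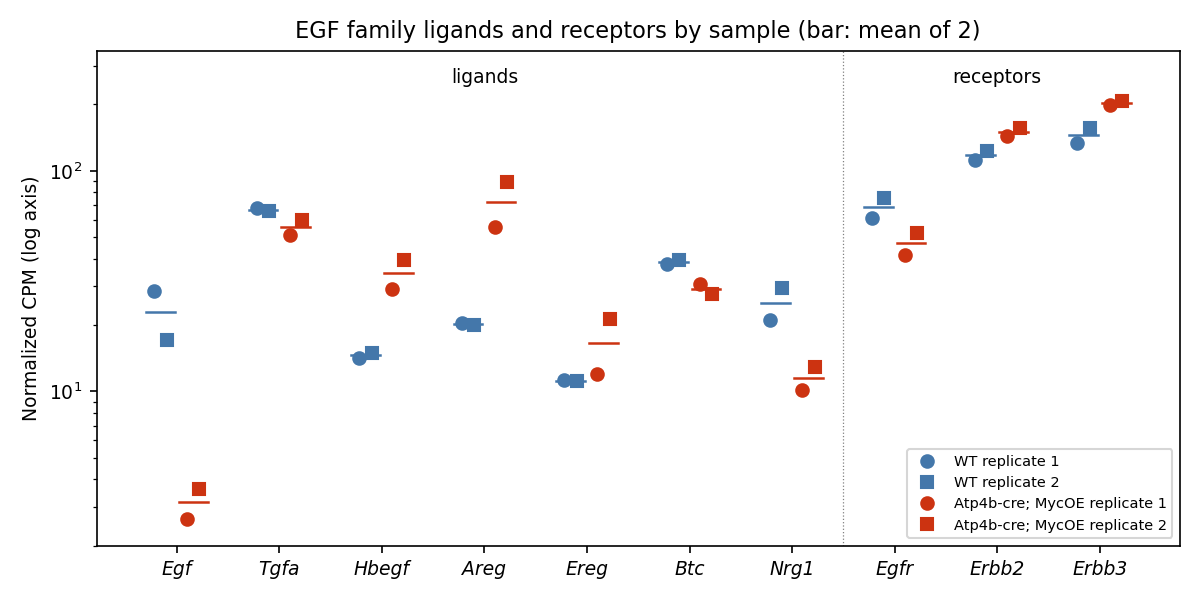
Normalized CPM of each member in each sample on a log axis, with WT in blue, *Atp4b-cre; MycOE* in red, circles for replicate 1, squares for replicate 2 and a bar at the mean of 2 samples. Both red points lie below both blue points for *Egf* (2.65 and 3.63 against 28.5 and 17.1) and above them for *Areg* and *Hbegf*.

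*Areg*, which encodes amphiregulin, had the largest rise of the 10. It had 20.5 and 20.0 normalized CPM in the WT samples and 55.5 and 89.4 in the *Atp4b-cre; MycOE* samples. The WT samples were almost equal, and both transgenic samples lay above them and differed from each other. The means were 20.2 ± 0.332 (SD, n = 2) and 72.4 ± 24.0 (SD, n = 2), a 3.58-fold rise (log2 fold change 1.84 with a standard error of 0.25, edgeR quasi-likelihood adjusted p = 0.0287). Leaving out any 1 of the 4 samples put the log2 fold change of *Areg* between 1.45 and 2.14. Transgenic replicate 2, which had the highest *Areg* level, also had the highest sum of squamous markers. In transgenic replicate 1 that sum was below both WT samples. Of the 9 squamous markers, 5 were below both WT samples in this replicate, 3 lay between them, and 1, *Krt14*, was above them (102.5 normalized CPM against 98.2 and 69.6). The part of squamous epithelium in the *Areg* values was not tested.

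*Areg* lies on mouse chromosome 5 (chr5:91139599-91148432, plus strand, GRCm38) in a row of 4 neighbouring protein-coding genes, all of them ligands of EGFR. The order is *Epgn*, *Ereg*, *Areg* and *Btc*, with no other protein-coding gene of GENCODE M21 between them, over 375531 bases. Of the 4 neighbours 1 was called, beside 10.7% of all tested genes, and nothing is read from this count. *Areg* was higher in *Atp4b-cre; MycOE* mice, *Btc*, the only one on the minus strand, was below WT in both transgenic samples, and *Ereg* (1.48-fold) and *Epgn* (1.90-fold, at most 20 counts) were above WT in both transgenic samples without being called. Upstream sequence from RefSeq (GRCm38.p6) was at hand for 6 of 10 members, and the 250 bases before the start are shown for *Areg* and, for comparison, for *Egf*, since these are the called members with such a window. Capitals mark letters that match a motif searched on both strands, namely the E-box core CACGTG bound by MYC, the AP-1 site TGANTCA bound by FOS-JUN dimers, the cyclic AMP response element TGACGTCA and the TATA box TATAAA. The *Areg* window is chr5:91139349-91139598 on the plus strand and the *Egf* window chr3:129755323-129755572 on the minus strand.
Areg: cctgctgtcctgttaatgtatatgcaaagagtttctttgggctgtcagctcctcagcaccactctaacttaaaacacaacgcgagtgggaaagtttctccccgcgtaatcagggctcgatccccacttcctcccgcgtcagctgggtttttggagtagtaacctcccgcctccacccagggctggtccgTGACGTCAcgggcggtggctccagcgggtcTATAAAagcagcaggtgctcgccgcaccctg
Egf: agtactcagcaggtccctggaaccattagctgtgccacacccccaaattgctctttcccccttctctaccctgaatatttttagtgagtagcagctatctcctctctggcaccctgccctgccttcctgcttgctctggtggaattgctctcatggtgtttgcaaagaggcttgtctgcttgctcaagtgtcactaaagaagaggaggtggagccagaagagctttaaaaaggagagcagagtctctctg
The *Areg* window holds 1 cyclic AMP response element, which begins 61 bases before the start, and 1 TATA box, which begins 31 bases before it. Among 32851 promoter windows of the same length, 1.55% held the former and 12.4% the latter. Neither the E-box core (6.02% of all windows) nor the AP-1 letters (6.75%) occur in it. The *Egf* window, that of a second RefSeq start of *Egf* (chr3:129725087-129725336, minus strand) and those of *Tgfa*, *Btc*, *Egfr* and *Erbb2* hold none of the 4 motifs, which says only that these letters are not in these 250 bases.

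*Hbegf*, which encodes heparin-binding EGF, a ligand that also binds heparan sulphate on the cell surface, rose 2.36-fold. Its levels were 14.2 and 14.9 normalized CPM in WT and 29.2 and 39.6 in transgenic mice. Both transgenic samples were higher than both WT samples, and, as for *Areg*, the transgenic replicates were further apart than the WT replicates. The means were 14.6 ± 0.447 (SD, n = 2) and 34.4 ± 7.33 (SD, n = 2). The log2 fold change was 1.24 (standard error 0.19, adjusted p = 0.0319). Transgenic replicate 2, with the highest squamous sum, again had the highest level, and the part of squamous epithelium in the *Hbegf* values was not tested.

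*Egf*, the founding ligand of the family and best known from salivary gland and kidney, moved the other way. Its counts were 956 and 477 in the WT samples and 90 and 162 in the *Atp4b-cre; MycOE* samples, or 28.5, 17.1, 2.65 and 3.63 normalized CPM. The WT samples differed, and even the lower of them was far above both transgenic samples. The means were 22.8 ± 8.05 (SD, n = 2) in WT and 3.14 ± 0.688 (SD, n = 2) in transgenic mice. *Egf* fell 7.24-fold (log2 fold change -2.86, standard error 0.35, adjusted p = 0.0235). With only the rows that stand at the same place in both name orders, the log2 fold change of *Egf* was -2.89 (adjusted p = 0.0262). Leaving out each sample gave values from -3.18 without WT replicate 2 to -2.44 without WT replicate 1. *Egf* (chr3:129677565-129755316, minus strand, GRCm38) shares exon bases with 2 antisense genes, and as no source used here says whether strand was used in counting, their reads cannot be told apart from its own. The same limit holds for *Tgfa*, *Ereg*, *Nrg1* and *Erbb2*, which each share exon bases with 1 gene on the other strand. It also holds for *Nrg4*, which shares them with 2. The fall of *Egf* stands beside that of the parietal, chief and surface mucous markers, and their part in it was not tested.

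The other ligands were not called. *Tgfa*, made by parietal and surface cells of the stomach, had 67.6 and 65.6 normalized CPM in WT, against 51.3 and 60.02 in *Atp4b-cre; MycOE* mice. This was a log2 fold change of -0.26 with a 95% interval from -0.54 to 0.03 (adjusted p = 0.173). The 4 values of *Tgfa* lay between 51.3 and 67.6, and both transgenic samples were below both WT samples. *Btc*, which encodes betacellulin, had 37.9 and 39.4 in WT and 30.8 and 27.6 in transgenic mice, a log2 fold change of -0.40 (95% interval -0.69 to -0.12, adjusted p = 0.0802). *Ereg*, which encodes epiregulin, had 11.3 and 11.1 in WT, 12.0 in transgenic replicate 1 and 21.2 in replicate 2. Only transgenic replicate 2 stood apart, and the log2 fold change of 0.57 had an interval from -0.26 to 1.40 (adjusted p = 0.272). Without transgenic replicate 1 the log2 fold change of *Ereg* was 0.92, and without replicate 2 it was 0.10. Each of these fits leaves a lone transgenic sample, so its spread is taken from the WT pair.

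*Nrg1*, which encodes neuregulin 1, the member that acts on ERBB3 rather than EGFR, had 21.1 and 29.4 normalized CPM in WT and 10.1 and 12.9 in transgenic mice. Both transgenic samples lay below both WT samples, at a log2 fold change of -1.13 (95% interval -1.76 to -0.49). Its adjusted p-value of 0.0520 missed the threshold in edgeR. *Nrg1* passed in DESeq2 (-1.14, adjusted p = 0.000531), without the filter on low counts (adjusted p = 0.0159) and with at least 10 counts in every sample (0.0473). It did not pass with DESeq2 size factors in edgeR (0.0518), with scaling by library size alone (0.0592) or with the replicate number as a block (0.0625). Leaving out each sample put its log2 fold change between -1.35 and -0.87, and each such fit leaves 1 genotype with a lone sample. Over all alternatives in the re-sorted table its sign was negative. Neuregulin 1 is made in many tissues by fibroblasts and nerves, and the 5 fibroblast markers summed to 1385 and 1512 normalized CPM in WT and to 412.3 and 727.3 in transgenic mice. The 5 glia and neuron markers summed to 33.3 and 24.0 in WT and to 14.2 and 21.3 in transgenic mice. Their part in the *Nrg1* values was not tested.

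**Figure D3:**
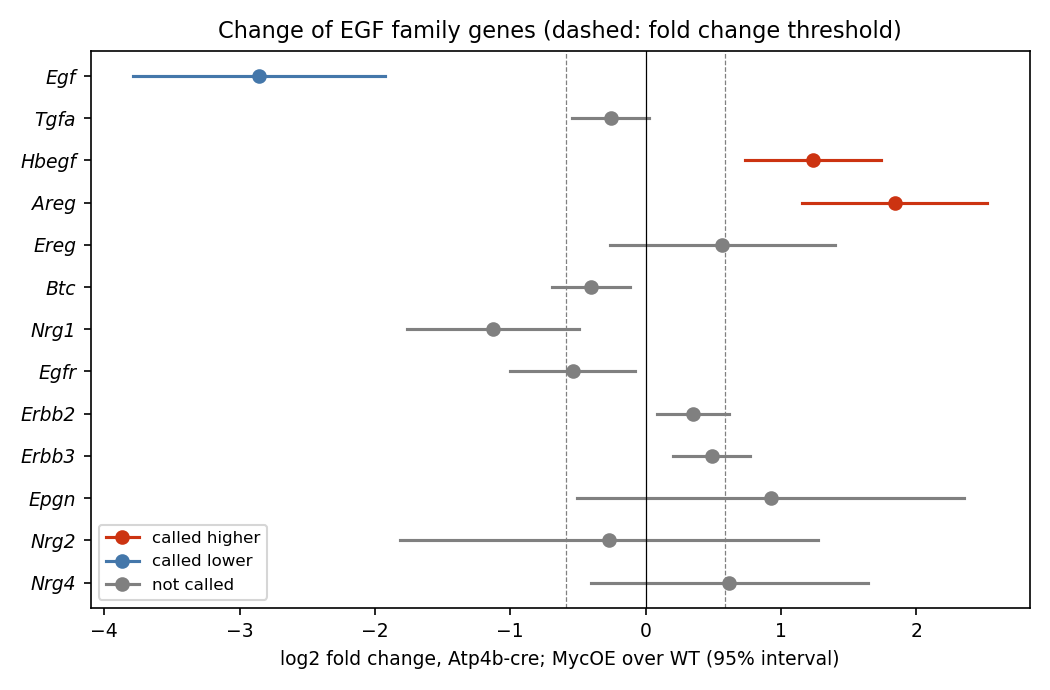
Log2 fold change of *Atp4b-cre; MycOE* over WT for the 10 members and the 3 other family genes that were tested, with 95% intervals as horizontal lines and dashed lines at a 1.5-fold change in each direction. *Areg* and *Hbegf* (red) lie to the right and *Egf* (blue) to the left, and the intervals of the grey, uncalled genes *Tgfa*, *Ereg*, *Epgn*, *Nrg2* and *Nrg4* include 0.

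None of the receptors was called. *Egfr*, the receptor shared by most of the ligands, had 60.9 and 75.5 normalized CPM in WT, against 41.4 and 52.5 in *Atp4b-cre; MycOE* mice. This was a log2 fold change of -0.54 (95% interval -1.003 to -0.08, adjusted p = 0.111). *Erbb2*, which encodes the receptor that is amplified in a share of gastric cancers, had 111.4 and 123.5 in WT and 143.3 and 156.6 in transgenic mice, a log2 fold change of 0.35 (95% interval 0.09 to 0.62, adjusted p = 0.0876). *Erbb3*, the kinase-poor receptor for neuregulins, had 133.9 and 156.1 in WT and 199.3 and 207.1 in transgenic mice, a log2 fold change of 0.49 (95% interval 0.20 to 0.78, adjusted p = 0.0566). The samples thus ranked with *Egfr* below WT and both *Erbb2* and *Erbb3* above it, without any of them passing both thresholds. Without WT replicate 2, the sample with high *Xist*, the log2 fold change was -0.38 for *Egfr*, 0.43 for *Erbb2* and 0.60 for *Erbb3*. Scaling by library size alone, which moved the median over all tested genes from 0.01 to 0.23 on the log2 scale, brought *Erbb3* past the thresholds (0.71, adjusted p = 0.0210) and left all 10 signs as they were.

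Levels were compared between genes after dividing normalized CPM by the length of all annotated exons of a gene in GENCODE M21, merged over transcripts. The annotation behind the counts is not given in the sources used here, so these lengths are approximate. Merging over transcripts can only lengthen a gene, which lowers its level per kilobase. The merged lengths ran from 1215 bases for *Areg* to 11326 for *Egfr*. Before division by length, *Areg* was below *Erbb3* in transgenic mice (means of 72.4 and 203.2 normalized CPM). In WT the highest levels per kilobase were those of *Erbb3* (22.3 and 26.0) and *Erbb2* (21.4 and 23.7), whose ranges overlapped. *Areg* (16.9 and 16.5), *Tgfa* (10.4 and 10.1), *Btc* (8.39 and 8.72) and *Egfr* (5.38 and 6.67) followed without overlap. *Hbegf* (2.95 and 3.08) came next, and at the low end *Ereg* (2.73 and 2.70), *Nrg1* (2.04 and 2.84) and *Egf* (2.53 and 1.52) overlapped from neighbour to neighbour. In *Atp4b-cre; MycOE* mice *Areg* stood at the top (45.6 and 73.6), above *Erbb3* (33.1 and 34.4) and *Erbb2* (27.5 and 30.1). *Tgfa*, *Hbegf* and *Btc* then overlapped from neighbour to neighbour between 6.04 and 9.25, followed by *Egfr* and *Ereg*, which also overlapped. *Nrg1* (0.980 and 1.25) and *Egf* (0.235 and 0.322) were last in that order.

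**Figure D4:**
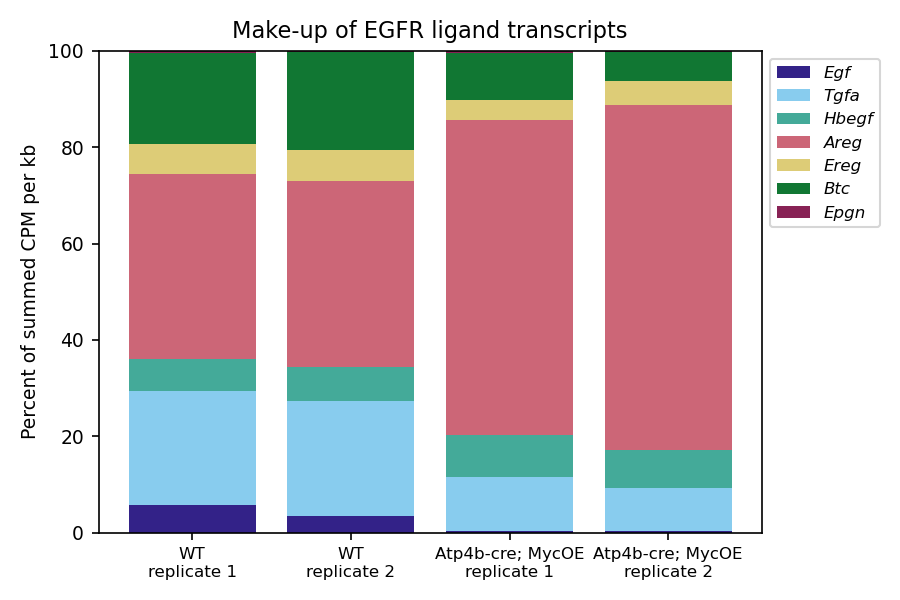
Share of each of 7 ligands of EGFR in their summed normalized CPM per kilobase of exon, as a stacked bar in percent for each sample, starting at 0. *Areg* (rose) takes 38.3% and 38.6% of the WT bars and 65.4% and 71.6% of the *Atp4b-cre; MycOE* bars.

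The make-up of the EGFR ligands shifted with these changes. The 7 ligands of EGFR, with *Epgn* counted among them, summed to 44.01 and 42.7 normalized CPM per kilobase in WT and to 69.8 and 102.8 in transgenic mice. *Areg* supplied 38.3% and 38.6% of this sum in WT and 65.4% and 71.6% in transgenic mice. *Tgfa* supplied 23.7% in each WT sample, and 11.3% and 8.99% in the transgenic samples. *Btc* supplied 19.1% and 20.4% in WT against 9.77% and 5.95%, and *Egf* 5.74% and 3.55% against 0.337% and 0.313%. *Hbegf*, in spite of its rise, stayed between 6.70% and 8.65% in all 4 samples. These shares add up to a fixed total, so a larger share of 1 ligand makes those of the others smaller. Among the 3 receptors, *Egfr* supplied 10.97% and 11.8% of the sum in WT and 5.68% and 6.70% in transgenic mice, whereas *Erbb2* lay between 42.1% and 43.6% in all 4 samples.

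The rest of the pathway was read from 63 further genes in 6 lists, of which 61 were tested. Of these, 4 were called higher and 2 lower, or 6 of 61 beside 10.7% of all tested genes, and their median log2 fold change was -0.01. With scaling by library size alone, 9 were called higher and 2 lower, with a median of 0.22. The remaining family members were low. *Epgn*, which encodes epigen, had 10 and 5 counts in WT against 16 and 20 (adjusted p = 0.296). *Nrg4* had 124 and 191 counts in WT against 313 and 310 (log2 fold change 0.62, adjusted p = 0.325), and *Nrg2* had 44 and 43 against 22 and 76 (adjusted p = 0.780). *Nrg3* had at most 11 counts and *Erbb4*, the remaining receptor, at most 15 in any sample, and neither was tested. *Erbb4* had 0 counts in WT replicate 1 and in transgenic replicate 1, which allows up to 3 counts in each.

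No gene was called among 8 that release membrane-bound ligands or restrain that step. *Adam10*, the protease that frees EGF and betacellulin, had the smallest adjusted p-value of these 8 but was also under the fold threshold, with 267.5 and 266.3 normalized CPM in WT and 340.4 and 348.2 in transgenic mice (log2 fold change 0.37, adjusted p = 0.0529). None of 16 adaptors and members of the RAS-MAPK cascade was called. *Plcg1* had 37.4 and 35.5 in WT and 24.4 and 25.7 in transgenic mice, with an adjusted p of 0.0437 but a log2 fold change of -0.54, under the threshold. None of 12 genes of receptor restraint and turnover was called, and *Ptprj*, a phosphatase, had a log2 fold change of -0.46 (adjusted p = 0.0471).

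Genes that respond to EGF receptor signalling moved in both directions. Of 10 feedback genes of the MAPK cascade 1 was called, beside 10.7% of all tested genes, namely *Dusp6*, the phosphatase that switches off ERK. It fell from 68.2 and 66.1 normalized CPM in WT to 37.8 and 34.2 in transgenic mice (log2 fold change -0.90, adjusted p = 0.0200). *Nf1* of the same list was not called (log2 fold change -0.29, adjusted p = 0.0772). Of 12 immediate response genes, 4 were called higher and 1 lower, beside 5.65% and 5.08% of all tested genes. The median log2 fold change of these 12 was 0.49. The transcription factor *Fosl1* rose most in this list, from 2.29 and 2.58 to 8.08 and 11.5 normalized CPM (log2 fold change 2.01, adjusted p = 0.0287). *Egr1* rose from 18.9 and 24.1 to 43.0 and 63.0 (1.30, adjusted p = 0.0423), *Ier2* from 54.5 and 63.7 to 92.3 and 98.4 (0.69, adjusted p = 0.0337), and *Fos* from 93.4 and 90.5 to 131.9 and 162.9 (0.68, adjusted p = 0.0432). All 4 were highest in transgenic replicate 2, which also had the highest squamous sum. The part of squamous epithelium in their values was not tested. *Etv5*, an ETS factor that responds to ERK, fell from 52.2 and 52.8 to 21.8 and 22.6 (-1.24, adjusted p = 0.0152), and *Junb* was not called (0.48, adjusted p = 0.0586). *Dusp6*, *Etv5* and *Egr1* stand at the same place in both name orders, and all were called when only such rows were tested. Without transgenic replicate 2 the log2 fold change of *Fos* was 0.52, under the threshold, and with the deposited names *Fos* and *Ier2* would be lower.

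**Figure D5:**
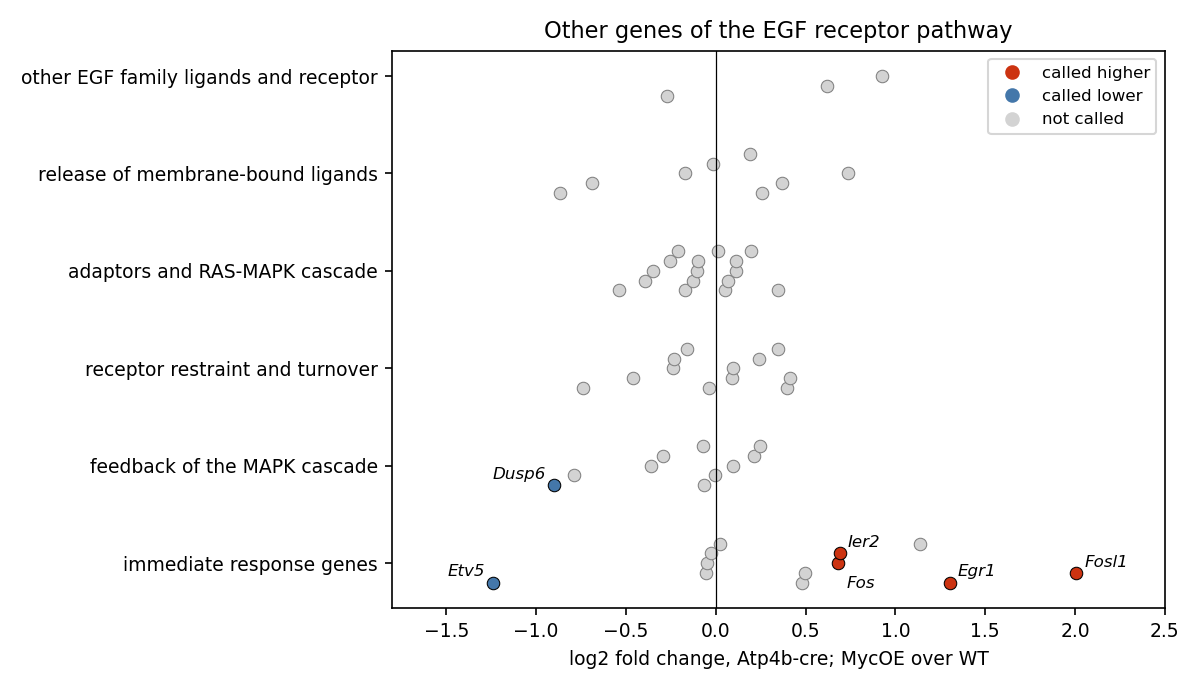
Log2 fold change of *Atp4b-cre; MycOE* over WT for 61 further genes of the EGF receptor pathway, 1 point per gene, spread vertically within 6 lists for legibility. The 6 called genes are named, with *Fosl1*, *Egr1*, *Ier2* and *Fos* to the right (red) and *Etv5* and *Dusp6* to the left (blue).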

How the data were processed

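Gastric mRNA was sequenced from 2 WT and 2 *Atp4b-cre; MycOE* samples. The authors deposited raw counts per gene symbol, 1 column per sample, without normalization. The submitters' processing notes list HISAT2 and the build mm10, and the counting tool, its strand setting and the annotation are not given in the sources used here. The authors compared the genotypes with DESeq2.

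The members, gene lists and name order were chosen with earlier results of these data known. The transgenic columns were moved, in row order, onto the gene names arranged by character code, using no count value. Differences were tested in edgeR 4.0.16 (R 4.3.3, filterByExpr, TMM, glmQLFit and glmQLFTest, Benjamini-Hochberg adjustment over all tested genes, no covariates) and called with the thresholds of the study. Standard errors are the absolute log2 fold change over the square root of F, and 95% intervals use the total degrees of freedom of the test. Normalized CPM are TMM-scaled, and SDs are over 2 samples. Total counts were 30260305 to 41463647 per sample, and counting limits cover counting error only. All members were named, as were the 5 other family genes, every called gene of the pathway lists and, in each list, the uncalled gene with the smallest adjusted p-value. 1 gene of these lists is not reported here and is left out of their counts. Alternatives were the deposited names, DESeq2 1.42.0, other scaling, filters and thresholds, the replicate number as a block, and fits without 1 sample. The main edgeR fit and the DESeq2 fit were also run on simulated counts with known changes, with means and spread taken from these data. The other alternatives were not.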

Additional observations from a re-analysis of the deposited data

How the results depend on the processing

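With 2 samples a genotype, calls depend on the estimate of the spread more than fold changes do. Over the alternatives run on the members' log2 fold changes, 96 kept their sign and their side of the thresholds, 8 passed them newly, 9 no longer passed, and 2 turned in sign. The 9 are *Egf*, *Hbegf* and *Areg* with the replicate block and without either WT sample. Leaving out each sample gave 0 to 4 called members, 0 to 7 called pathway genes and 0 to 2470 called genes in all, with 0 in each case without WT replicate 1 or WT replicate 2, where edgeR has a lone WT sample that is assumed to vary like the transgenic pair (6 members, and 8 and 12 pathway genes, at an unadjusted p under 0.05). The replicate numbers are not said to mark a shared litter or day. Same-numbered samples deviated together with a correlation of 0.0634, and this value cannot decide whether they share either. The WT samples also differed from each other in sex-linked genes, and the transgenic samples in squamous markers. With the replicate block, edgeR called 0 members, 0 pathway genes and 114 genes in all, with 8 of 10 members, 18 of 61 pathway genes and 5178 of 17643 genes in all at an unadjusted p under 0.05. *Nrg1* did not pass with the replicate block either (log2 fold change -1.12, adjusted p = 0.0625). DESeq2 called 4 members, 8 pathway genes and 3232 genes in all. Library size without scaling factors gave 11 pathway genes (9 higher and 2 lower) and 3011 genes in all, of which 2272 were higher and 739 lower, against 996 and 896 with TMM. A log2 threshold of 1 left 3 pathway genes and 1113 genes in all. With only rows at the same place in both name orders, an alternative chosen after seeing the data, 1 of 5 members, 3 of 9 pathway genes and 132 of 1355 genes were called, a smaller number because fewer genes were tested. With the deposited names 6 members, 47 pathway genes and 18580 genes in all were called, and log2 fold changes turned in sign for *Tgfa* (1.97), *Areg* (-4.26), *Nrg2* (7.15), *Fos* (-3.79), *Ier2* (-1.43), *Adam10* (-7.32) and *Plcg1* (1.78), since other counts stand beside these names. *Nrg2* ranged from -1.13 to 0.26 when each sample was left out.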

Other observations

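Of the genes that act on the release of EGF family ligands, *Rhbdf2* and *Timp3* were not called, and both were chosen for description after their values were seen. *Rhbdf2*, which encodes iRhom2, a partner that brings the protease ADAM17 to the cell surface, had 19.9 and 21.7 normalized CPM in WT, against 39.3 and 29.8 in *Atp4b-cre; MycOE* mice (log2 fold change 0.73, edgeR adjusted p = 0.0651). *Timp3*, which encodes an inhibitor of ADAM17, had 225.8 and 198.3 in WT and 86.4 and 146.5 in transgenic mice (log2 fold change -0.86, adjusted p = 0.110). In both genes the genotypes did not overlap, as in 64.9% of all tested genes.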
